A study of Arabidopsis with 2 samples.

Results

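The TGA family of Arabidopsis thaliana comprises bZIP transcription factors, and the 10 genes examined here are PERIANTHIA (PAN, AT1G68640), TGA1 (AT5G65210), TGA2 (AT5G06950), TGA3 (AT1G22070), TGA4 (AT5G10030), TGA5 (AT5G06960), TGA6 (AT3G12250), TGA7 (AT1G77920), TGA9 (AT1G08320) and TGA10 (AT5G06839). They were taken by gene identifier from the 21500 gene probes of the arrays. A probe was found for 9 of the 10 genes, and TGA10 had none. The expression of these genes was compared between wild-type embryos of Landsberg erecta (Ler) and double mutants for cuc1-1 and cuc2-1 (cuc1 cuc2 below), all at the torpedo stage of embryogenesis. Wild-type embryos came from Ler plants and mutant embryos from cuc1-1 cuc2-1/+ plants, grown at 23°C in continuous light. About 100 embryos per genotype were excised in 6% glucose, fixed overnight in ethanol and acetic acid at 4°C, and pooled. How the double-mutant embryos were told apart from their siblings is not given in the sources used here. Each pool gave 1 RNA extract, and both extracts were hybridized together on 2 arrays with the dyes exchanged. No test across biological replicates was therefore possible, and every error below is that of the array measurement.

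CUC1 and CUC2 encode NAC transcription factors that act in the boundary between the cotyledons, and the double mutant forms no shoot meristem and has fused cotyledons. TGA factors bind DNA elements with a TGACG core and often work with co-regulators of the NPR and BOP family or with CC-type glutaredoxins. Most of the family is known from defence responses to salicylic acid, whereas PAN acts in meristems, where it limits floral organ number and activates AGAMOUS, and TGA9 and TGA10 act in anther development.

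PAN was lower in cuc1 cuc2 than in Ler embryos, and no other family member was called in either direction. When cuc1 cuc2 was labelled with Cy5, the processed signal of the PAN probe (scanner brightness after background removal and dye normalization, in arbitrary units) was 3749 for the mutant and 6114 for the wild type. When cuc1 cuc2 was labelled with Cy3, the values were 3974 and 5605. The mutant value thus lay below the wild-type value on each array, whichever dye the mutant carried. Both arrays read the same pair of extracts. The log2 ratio, mutant over wild type throughout, was -0.71 (error 0.17) with the mutant in Cy5 and -0.50 (error 0.17) with the mutant in Cy3, where the error is that of the scanner software's model of a single spot. The same model gave the spot a p of 5.03e-05 on the first array and of 0.00325 on the second, which compares the labelled extracts on an array and is not a test across embryo pools. Their mean was -0.60 (error 0.12), a signal 1.52-fold higher in Ler. The ratio was the 138th lowest of 21500. Because whole embryos were pooled, fewer cells expressing PAN and less PAN RNA per cell cannot be told apart from these arrays.

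A probe was called when this software p was under 0.01 in both hybridizations with the same sign. By this rule 1 of the 9 members was lower and 0 were higher, beside 0.242% of all gene probes lower and 0.502% higher. PAN was among the genes the study picked from these arrays and the family was assembled around it, so the share of members called is no independent evidence. By quantitative RT-PCR the study then found PAN lower in the mutant at the heart stage and not at the bending cotyledon stage. By in situ hybridization it reported the PAN signal missing from the cotyledon boundary of the mutant. By a rule of fold alone, a log2 ratio beyond 0.5 with the same sign in both hybridizations, 0 members were lower and 0 higher, against 0.344% and 0.712% of all gene probes. PAN fell short of that rule by its value of -0.496 in the hybridization with cuc1 cuc2 in Cy3.

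**Figure D1:**
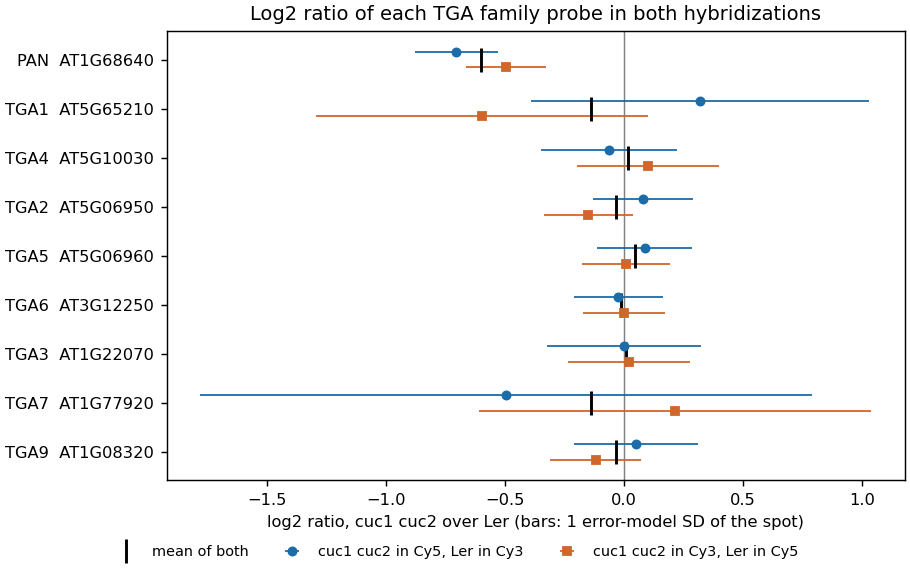
Log2 ratio of mutant over wild type (x axis) for the 9 TGA family probes (y axis), grouped by subfamily. Circles show the hybridization with cuc1 cuc2 in Cy5, squares that with cuc1 cuc2 in Cy3, bars 1 SD of the spot by the scanner software's error model and black ticks the mean of both. PAN lies at -0.71 and -0.50, and the bars of every other member cross 0 in both hybridizations.

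The TGA1 and TGA4 pair, factors whose interaction with NPR1 depends on their redox state, gave ratios on either side of 0. TGA1 read 246 in cuc1 cuc2 and 197 in Ler (processed signal) with the mutant in Cy5, and 122 and 185 with the mutant in Cy3. The log2 ratio was thus 0.32 (error 0.71) in the first hybridization and -0.60 (error 0.70) in the other. TGA1 was dim, with a brightness as scanned of 103 to 118 in Cy5 and 157 to 171 in Cy3 over a local background of 66 to 73. Its mean ratio of -0.14 had an error of 0.50, so a change of the size seen for PAN could not be detected or set aside for this gene. TGA4 was measured more closely, with log2 ratios of -0.06 (error 0.29) and 0.10 (error 0.30). It read 631 in cuc1 cuc2 and 660 in Ler with the mutant in Cy5, and 425 and 396 with the mutant in Cy3, so that the arrays differed more than the genotypes.

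The TGA2, TGA5 and TGA6 trio, which act redundantly in systemic acquired resistance, had the smallest errors of the members other than PAN. TGA2 gave 1187 in cuc1 cuc2 and 1124 in Ler with the mutant in Cy5, and 1039 and 1153 with the mutant in Cy3, which are log2 ratios of 0.08 (error 0.21) and -0.15 (error 0.19). For TGA5 the signals were 1388 and 1308, then 1216 and 1210, giving 0.09 (error 0.20) and 0.01 (error 0.18). It was the only member above 0 in both hybridizations, by less than its error in each. TGA6 was at 1668 in cuc1 cuc2 and 1696 in Ler on one array and at 2023 in both genotypes on the other, and its mean log2 ratio was -0.01 (error 0.13). The mean ratios of the trio ran from -0.04 to 0.05, and none exceeded its own error.

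TGA3 and TGA7, which belong to the same subfamily, differed in how well they could be read. TGA3, a factor of basal defence, gave 544 in cuc1 cuc2 and 545 in Ler with the mutant in Cy5, and 522 and 515 with the mutant in Cy3. Its log2 ratios were -0.0014 (error 0.32) and 0.02 (error 0.26), the closest agreement between hybridizations in the family. TGA7 was the dimmest member, at 86.1 to 89.3 as scanned in Cy5 and 156 to 157 in Cy3, over a local background of 62 to 68. The probe of NPR2, not well above background in any channel, was at 75.4 to 78.0 in Cy5 and at 138 in Cy3. The processed signal of TGA7 was 99.9 in cuc1 cuc2 and 141 in Ler with the mutant in Cy5, and 136 and 118 with the mutant in Cy3. The log2 ratios were -0.49 (error 1.29) and 0.21 (error 0.82), too imprecise to tell a change of the size of that in PAN from none.

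TGA9, which with TGA10 and the glutaredoxins ROXY1 and ROXY2 is needed for anther development, was detected in the embryos without a difference beyond its error. Its signals were 763 in cuc1 cuc2 and 737 in Ler with the mutant in Cy5, and 992 and 1077 with the mutant in Cy3. The log2 ratios were 0.05 (error 0.26) and -0.12 (error 0.19).

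**Figure D2:**
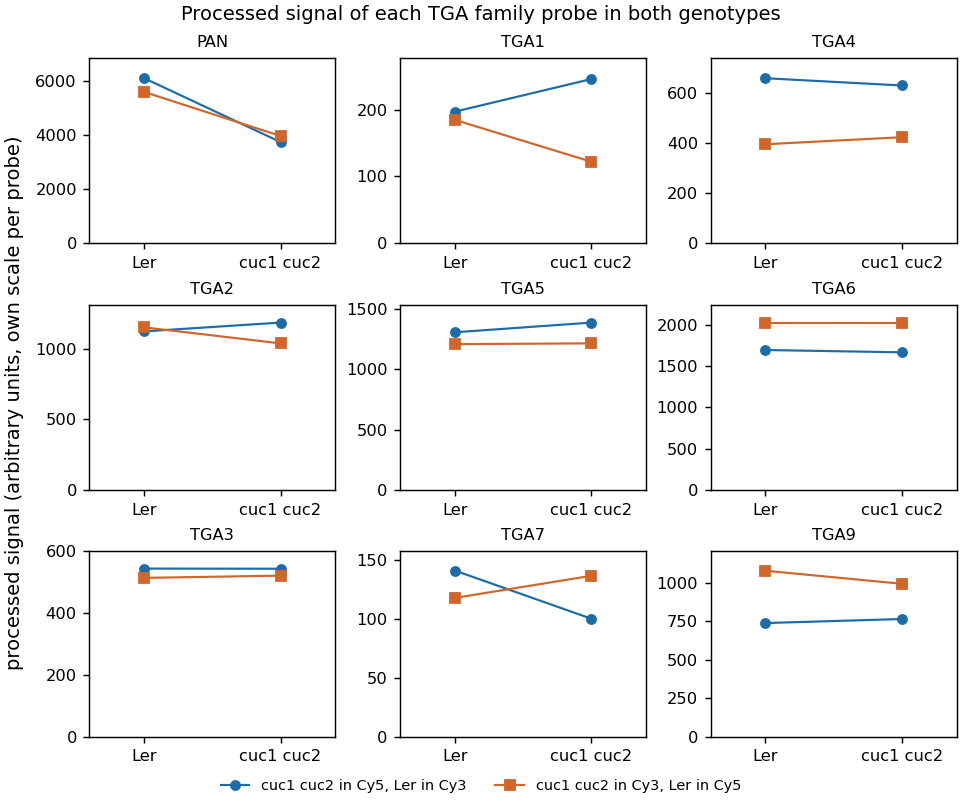
Processed signal (y axis, arbitrary units, starting at 0 with its own scale for each probe) in Ler and cuc1 cuc2 embryos for each of the 9 TGA family probes, with circles for the hybridization with cuc1 cuc2 in Cy5 and squares for that with cuc1 cuc2 in Cy3. PAN falls from 6114 to 3749 and from 5605 to 3974, while the lines of TGA1 and TGA7 run in opposite directions on the 2 arrays.

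All 9 probes were well above background in both genotypes on both arrays by the scanner software's flag, and 0 of the 9 carried a flag for saturation, uneven pixels or an outlying or substituted signal. Signals of different probes also depend on the probe sequence and are therefore not compared between genes. Among the 8 members other than PAN, each mean ratio was smaller than its own error, and the single-array p ran from 0.39 to 0.999. Across the family, 2 members (PAN and TGA6) were below 0 in both hybridizations, 1 was above 0 in both and 6 had opposite signs, which is 22.2%, 11.1% and 66.7% of the members beside 22.9%, 23.1% and 54.0% of all gene probes. The median of the 9 mean ratios was -0.034, and that of all gene probes was -0.00059.

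In ascending order of the mean log2 ratio the members were PAN, TGA7, TGA1, TGA2, TGA9, TGA6, TGA3, TGA4 and TGA5. None of the 8 gaps between neighbours in this order exceeded the combined error of the pair, and the widest, 0.46 between PAN and TGA7, had a combined error of 0.77. Since PAN was picked for its low ratio on these arrays, its differences from single members are a description and no test. PAN minus TGA5 was -0.65 (combined error 0.18), PAN minus TGA6 was -0.59 (0.18) and PAN minus TGA2 was -0.57 (0.19). For TGA1 and TGA7 the difference was smaller than its combined error, at -0.46 (0.51) and -0.46 (0.77). PAN lay 0.58 below the median of the other 8 members on the log2 scale.

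The agreement between the hybridizations was set beside that of probes of similar brightness. Among the 2155 other probes whose brightness lay within 0.5 log2 units of that of PAN, the median difference between the hybridizations was 0.09 and the 5th and 95th percentiles of the mean log2 ratio were -0.22 and 0.24. The hybridizations differed by 0.21 for PAN, so they agreed less well than is usual at this brightness but differed by less than the ratio itself. Around TGA7 the median difference was 0.65 over 1997 probes, close to the 0.71 of TGA7, and around TGA1 it was 0.48 over 2260 probes, against 0.92 for TGA1.

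**Figure D3:**
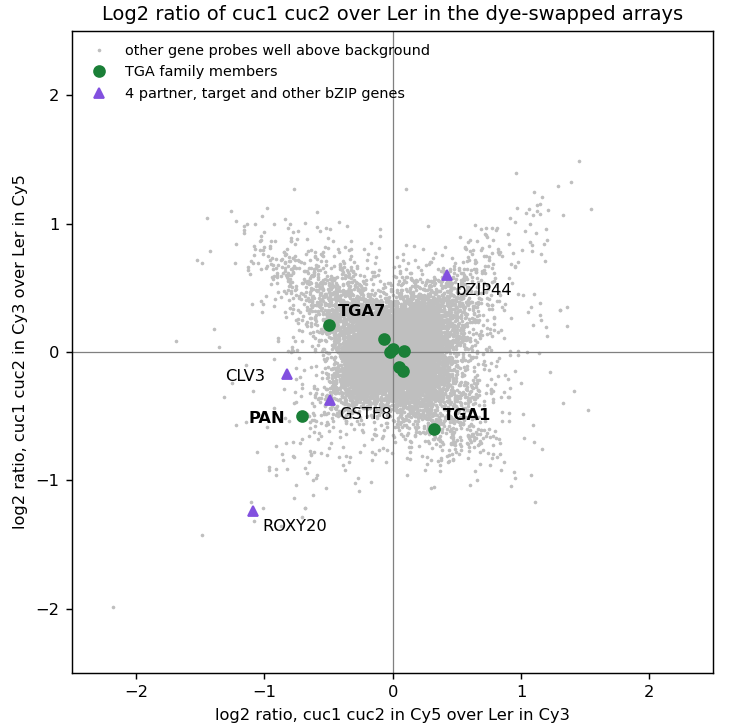
Log2 ratio of mutant over wild type with cuc1 cuc2 in Cy5 (x axis) against that with cuc1 cuc2 in Cy3 (y axis) for the probes well above background on both arrays. Green circles are the 9 TGA family members, purple triangles 4 other named genes and grey points 18088 other probes, with 1 probe outside the axes. PAN at -0.71 and -0.50 lies at the lower left with ROXY20, TGA1 and TGA7 lie where the hybridizations disagree, and the remaining members cluster around 0.

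The genes next to PAN on chromosome 1 were measured to see whether the difference reached beyond PAN. AT1G68650, a putative transmembrane protein gene, had log2 ratios of -0.12 and -0.08 (errors 0.17 and 0.17), and AT1G68660 had 0.22 and 0.02 (errors 0.17 and 0.17). On the other side AT1G68620 was at 0.14 and -0.33 with errors of 1.27 and 1.12, and AT1G68630 was not well above background in any of the 4 channels. None of the neighbours was called, although only AT1G68650 and AT1G68660 were measured as precisely as PAN. Beside TGA9, the probe AT1G08325 is described on the array as a bZIP protein and its identifier had no match in the RefSeq gene table used. Its log2 ratios of 0.12 (error 0.51) and -0.28 (error 0.39) had opposite signs, as did those of TGA9 and of 54.0% of all gene probes. TGA2 and TGA5 are neighbours on chromosome 5, and of the genes flanking that pair AT5G06980 had log2 ratios of -0.37 (error 0.17) and -0.54 (error 0.17), with a p under the limit on the second array only. AT5G06940 and AT5G06970 had mean ratios of -0.01 (error 0.12) and -0.04 (error 0.12).

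The 3 probes nearest to PAN by the Euclidean distance of both log2 ratios, among probes well above background in every channel, were AT1G25190, CEP1 (AT5G50260), which encodes a cysteine protease, and AT3G14540, described as a terpene synthase. Their log2 ratios were -0.67 and -0.48, -0.65 and -0.50, and -0.65 and -0.54. None of the 3 was called, because their errors were larger than those of PAN: the error of the mean was 0.14 for AT1G25190, 0.24 for CEP1 and 0.82 for AT3G14540. With 1 pair of extracts this nearness rests on 2 values per probe.

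Of the 6 NPR and BOP co-regulators, 0 were called lower and 0 higher, beside 0.242% and 0.502% of all gene probes. Only 3 of the 6 were well above background in all 4 channels. BOP2, which with BOP1 shapes leaf bases and binds TGA factors including PAN, had log2 ratios of -0.53 (error 0.34) and -0.13 (error 0.25). NPR3 and NPR4, salicylic acid receptors that repress transcription with TGA factors, lay at -0.0043 (error 0.20) and 0.03 (error 0.12) in the mean. NPR1, the co-activator of TGA factors in defence, was well above background in 2 of the 4 channels and had ratios of 1.07 and -0.81. NPR2 was not well above background in any channel. BOP1 was well above background only in Ler on 1 of the arrays. Its log2 ratio was -3.84 (error 1.45) there and 0 (error 4.78) on the other, so no direction is given for it.

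ROXY20 (AT5G11930), a CC-type glutaredoxin, was lower in cuc1 cuc2, with a mean log2 ratio of -1.16 (error 0.15) against the -0.60 (error 0.12) of PAN. It read 913 in cuc1 cuc2 and 1944 in Ler (processed signal) with the mutant in Cy5, and 972 and 2292 with the mutant in Cy3. The log2 ratios were -1.09 (error 0.21) and -1.24 (error 0.20). The study also chose ROXY20 from these arrays and followed it by quantitative RT-PCR and in situ hybridization. It was the 1 gene called among the 4 glutaredoxins listed, beside 0.242% of all gene probes called lower, and the list was drawn up with this result known. ROXY1, which binds PAN in the control of petal number, was at -0.04 (error 0.17) and 0.18 (error 0.17), ROXY19, an interactor of TGA2, was at -0.43 and 0.21, and ROXY2 was not well above background in any channel.

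Of the 8 genes known as targets of TGA factors, 0 were called lower and 0 higher, beside 0.242% and 0.502% of all gene probes. The median of their mean ratios was -0.07, and 6 of the 8 were well above background in all 4 channels. GSTF8, a glutathione transferase gene whose promoter binds TGA factors, came nearest, with processed signals of 1897 in cuc1 cuc2 and 2657 in Ler, then 2031 and 2626. Its log2 ratios were -0.49 (error 0.18) and -0.37 (error 0.17), and the p of the second missed the limit. WRKY70, a regulator of salicylic acid responses, had -0.38 (error 0.19) and -0.19 (error 0.17). PR1, the defence gene most used as a readout of NPR1 and TGA factors, had 0.16 (error 0.43) and -0.04 (error 0.28), and SARD1, an activator of salicylic acid synthesis, had 0.03 (error 0.18) and -0.11 (error 0.18). AGAMOUS (AG), the floral homeotic target of PAN, was well above background in 3 of 4 channels and had ratios of -0.57 (error 1.65) and 0.43 (error 0.97), which leave its direction unknown.

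The 4 floral and meristem genes listed beside PAN were all below 0 in both hybridizations, as were 22.9% of all gene probes. Of the 4, 0 were called, beside 0.242% of all gene probes called lower. CLV3, the signal that restrains stem cell number, had log2 ratios of -0.82 (error 0.44) and -0.17 (error 0.36). CLV1, its receptor, had -0.18 (error 0.21) and -0.25 (error 0.19), and WUSCHEL (WUS), the factor that maintains stem cells, had -0.01 (error 0.59) and -0.44 (error 0.39). LFY, a regulator of floral identity, was at -0.05 (error 0.17) and -0.02 (error 0.17). Only the mean of CLV3, at -0.50 (error 0.28), and that of CLV1, at -0.22 (error 0.14), exceeded their errors.

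**Figure D4:**
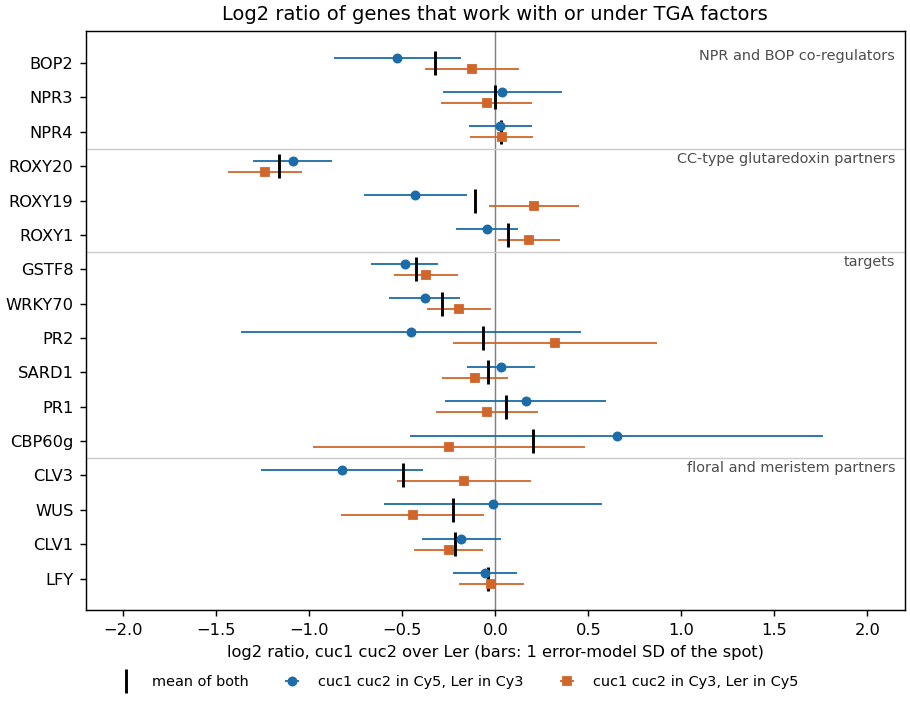
Log2 ratio of mutant over wild type (x axis) for the 16 listed co-regulator, glutaredoxin, target and floral or meristem genes that were well above background in all 4 channels (y axis), with symbols and bars as for the family members. ROXY20 at -1.09 and -1.24 stands farthest from 0, and GSTF8 and WRKY70 are the other genes with both bars clear of 0.

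The probe of CUC2, a gene mutated in the double mutant, had log2 ratios of -0.62 (error 0.33) and -0.999 (error 0.30), but was not called because the p of the first missed the limit. The CUC1 probe was at 0.02 and -0.11 (errors 0.17 and 0.16). Where these probes lie relative to the mutations was not analysed here, so CUC1 does not check the label. All 6 embryo markers passed the background flag in the 4 channels. Their summed processed signal was 40837 and 44194 in cuc1 cuc2 and 40107 and 42097 in Ler. Most of it came from LEC1, at 27862 and 30133 in cuc1 cuc2 and 27760 and 28980 in Ler, so the sums say little about the other markers. OLEO1, an oil body protein of maturing embryos, was the 1 marker called, higher at 0.55 and 0.64, beside 0.502% of all gene probes called higher. The embryo regulators LEC1, FUS3 and ABI3 had mean log2 ratios of 0.03, 0.04 and 0.06, LEC2 had -0.12 (error 0.17), and CRA1, a seed storage protein, had -0.26 (error 0.16). The 7 endosperm or seed coat markers summed to 1867 and 1838 in cuc1 cuc2 and to 1877 and 1511 in Ler, and 2 of them, BAN and PHE1, were not well above background in any channel. With the mutant in Cy3, SUC5 alone read 790 in cuc1 cuc2 and 481 in Ler. None of the 7 was called, beside 0.242% of all gene probes called lower and 0.502% higher. Opposite signs in the hybridizations were found for 6 of the 7, beside 54.0% of all gene probes. Their mean ratios ran from -0.24 (FIS2) to 0.40 (SUC5) with a median of 0.0044. The part of embryo age or of other seed tissues in the PAN ratio was not tested.

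**Figure D5:**
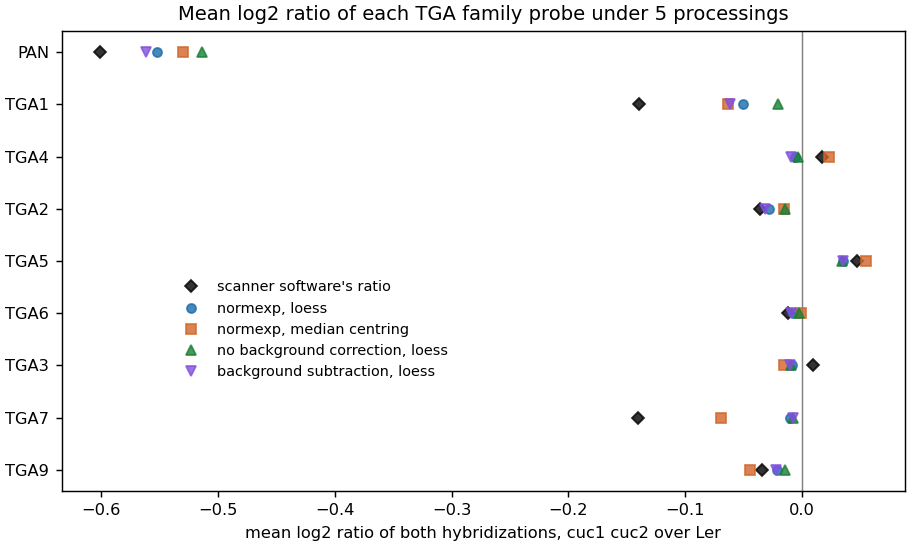
Mean log2 ratio of both hybridizations (x axis) for the 9 TGA family probes (y axis) under 5 ways of processing the signals, with diamonds for the scanner software's ratio used above and the other symbols for 4 alternative background corrections and normalizations. PAN stays between -0.60 and -0.51, and TGA1 and TGA7, the dimmest probes, move most, from -0.14 towards 0.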

How the data were processed

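RNA of Ler and cuc1 cuc2 embryos (1 extract each) was amplified, labelled and hybridized by the authors to 2 two-colour Agilent Arabidopsis arrays in a dye swap. Per the file headers, Feature Extraction A.7.5.1 gave, for each spot, the deposited log10 ratio of Cy5 over Cy3 with its error and p-value, and the intensity of both dyes, as scanned and processed. The deposited table of the authors' processed ratios matched these to within 1.7e-09 on the log2 scale and gave no separate result. With the dye labels, ratios were put on the log2 scale as mutant over wild type, and both arrays were averaged. The error given for a mean treats the spot errors as independent and covers measurement only. The number of arrays limits the precision. A call needed p under 0.01 and the same sign in both hybridizations. The members and gene lists were chosen with earlier results of these data known. The genes examined singly were all members, the listed partners, targets and markers, the 2 probes on each side of PAN, TGA9 and the TGA2 and TGA5 pair, the 3 probes nearest PAN, and the 2 lowest and 2 highest of the other bZIP genes. Of these, PR2, PR5, CBP60g, TT10, AGL62, ZOU, WIP3, AT1G08310, AT1G08340 and AT5G06930 are given no value of their own. Each of them had a mean ratio smaller than its error. Gene names came from RefSeq (TAIR10.1), where 21191 of 21500 identifiers matched, and coordinates and sequences were not used here. Alternatives used limma 3.58.1 (normexp with offset 50, loess, median centring) under R 4.3.3 and were tested on simulated data, as was the call rule.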

Additional observations from a re-analysis of the deposited data

How the results depend on the processing

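The PAN log2 ratio kept its direction under all 4 alternative background corrections and normalizations, from -0.56 (background subtraction, loess) to -0.51 (no correction, loess), and ran from -0.71 to -0.50 over the single hybridizations. Its difference from the median of the other members ran from -0.55 to -0.51 and from -0.73 to -0.50. The call of PAN did depend on the limit. With p under 0.001 in both hybridizations, with a Benjamini-Hochberg adjusted p under 0.05 within each array, or with a log2 ratio beyond 0.5 in both, 0 members were lower. With the mutant in Cy3, the p of PAN was 0.00325, its adjusted p 0.325 and its log2 ratio -0.496, each short of the limit, and its adjusted p with the mutant in Cy5 was 0.0178. The members higher were 0 under every alternative. Over all gene probes, 102 lower and 237 higher were called at p under 0.05, 22 and 55 at p under 0.001, and 16 and 39 after adjustment, beside 52 and 108 by the main rule. Single hybridizations gave 95 to 138 lower and 198 to 239 higher.

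The median over the 9 members, -0.034, became -0.0098 (normexp, loess), -0.015 (normexp, median centring), -0.0088 (no correction, loess) and -0.0099 (subtraction, loess), and -0.0014 to -0.00012 in single hybridizations, all smaller than the error of any member. ROXY20 was -0.96 to -0.75 and CUC2 -0.49 to -0.30 under the 4 alternatives, against -1.16 and -0.81. bZIP67 was 0.20 to 0.32, against 0.47. Of the probes nearest PAN, AT1G25190 was -0.47 to -0.34, CEP1 -0.36 to -0.22 and AT3G14540 -0.21 to -0.07. Their scanner ratios were -0.58, -0.57 and -0.60. PAN stayed at -0.56 to -0.51, so the nearness of these probes to PAN depended on the processing. The cause of these shifts was not tested. The errors of TGA1 and TGA7, whose signals were closest to background, were larger than those of the other members. No paired analysis was possible because there is a single group of 2 technical replicates and no test across samples.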

Other observations

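The other bZIP genes are described here as a background to the TGA family. Of 42 listed, 40 had a probe, and 0 of these were called lower and 0 higher by p under 0.01 in both hybridizations. Over all gene probes these calls made up 0.242% and 0.502%. In both hybridizations 7 of the 40 (17.5%) were below 0 and 14 (35%) above, beside 22.9% and 23.1% of all gene probes, and the median of their mean log2 ratios was 0.03. The highest were bZIP44 (AT1G75390), whose translation is controlled by sucrose, with ratios of 0.42 (error 0.18) and 0.60 (error 0.17), and bZIP67 (AT3G44460), an activator of seed maturation genes, with 0.45 (error 0.38) and 0.50 (error 0.24). The lowest were bZIP28 (AT3G10800), a membrane-tethered factor of the unfolded protein response, with -0.23 (error 0.19) and -0.40 (error 0.17), and bZIP53 (AT3G62420), another activator of seed maturation genes, with -0.36 (error 0.17) and -0.17 (error 0.16). The 40 mean ratios ran from -0.32 (error 0.13) for bZIP28 to 0.51 (error 0.12) for bZIP44. All lay above the -0.60 (error 0.12) of PAN. Since PAN was picked for its low ratio on these arrays, this is a description and no test.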
